A study of Mus musculus with 8 samples.

Results

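Receptors for glutamate, GABA and glycine carry fast and modulatory signals between neurons, and they appear on neural progenitors before synapses form. The ionotropic kinds are ion channels built from several subunits, so the subunits a cell transcribes set which channels it can assemble. AMPA, kainate and NMDA receptors pass cations when glutamate binds, while GABA-A and glycine receptors pass chloride. The metabotropic glutamate receptors and the GABA-B receptor act through G proteins instead. In embryonic neural cells GABA and glycine often depolarise, because chloride is held high inside the cell by the importer Slc12a2 while the exporter Slc12a5 is still low.

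The receptor subunits were taken as every probe whose annotated gene symbol names a subunit of one of these families, without regard to its signal. This gave 53 probes for 40 genes, out of 25662 probes and 16562 named genes on the array. The families were AMPA (9 probes), kainate (6), NMDA (5), metabotropic glutamate (5), GABA-A (20), GABA-B (2) and glycine receptors (6). A RefSeq gene table lists 50 symbols of this form, and the genes without a probe entry were not analysed here.

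The samples were neural stem and progenitor cells of E14.5 mouse embryos on a mixed C57BL/6 X 129S1/SvlmJ background. The Prmt5-depleted group, 4 arrays, had the genotype Prmt5F/FNes, in which Cre recombinase driven by Nestin acts on a floxed Prmt5 gene. The control group, 4 arrays, had the genotype Prmt5F/F, so both groups carried the floxed allele and the label of the controls names no Cre. Effects of Cre and of Prmt5 loss cannot be told apart. Prmt5 is an arginine methyltransferase that modifies histones and splicing factors, and Nestin is a gene of neural progenitors. The labels do not say whether arrays of a group hold separate embryos, cultures or pools, and the spread that the p-values rest on may be technical.

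Array mean signals lay between 449 and 598 intensity units, and 12518 to 13602 probes were detected per array, which means a detection p-value under 0.05. With 4 arrays a group, precision is set by the array number. All signals below are log2 intensities after background correction and quantile normalization. Changes are given as Prmt5-depleted minus control, tested with limma over all 13196 probes detected on at least 4 of the 8 arrays and adjusted by Benjamini-Hochberg. The brightest Prmt5 probe, ILMN_2983093, read 7.39, 7.84, 7.32 and 8.21 on Prmt5-depleted arrays 1 to 4, against 10.02, 10.48, 10.54 and 10.52 on control arrays 1 to 4. It was therefore lower on every array labelled as depleted (log2 change -2.70, limma adjusted p = 1.04e-06), although whether this probe lies in the floxed stretch is not known here. Along the second principal component, which held 10.5% of the variance, Prmt5-depleted arrays 1 and 3 and control array 4 stood apart from the other 5 arrays. Fold changes and at-least bounds hold for background-corrected signals, and those of the tested receptor probes were smaller without the correction. Results that rest on these 3 arrays are given with and without them. Their split was drawn from the tested signals themselves, receptor probes included, so adjusted p-values of fits that use it are descriptive.

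Few receptor subunits were transcribed at a level the arrays could read. Of the 53 probes, 18 were detected on at least 4 arrays and tested, which is 34% against 51.4% of all probes. They stand for 13 genes. A further 6 probes were detected on 1 to 3 arrays and 29 on none. Between 17 and 19 of the 53 probes were detected on a Prmt5-depleted array, against 12 to 17 on a control array.

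Of the 18 tested probes, 9 were higher and 1 was lower in Prmt5-depleted cells, and 8 did not pass the test. By gene, 6 of the 13 had a higher probe and 1 had a lower probe. Probes of the same gene are not independent, so the probe shares weigh some genes more. Over all tested probes 46.7% were called, 22.1% as higher and 24.7% as lower, and 47.2% were called among tested probes in the signal range of the receptor probes. The share of receptor probes called in either direction, 55.6%, was thus near that of the array as a whole, with 50% called higher and 5.56% lower. The filter keeps probes that are bright in 1 group alone, and such probes are favoured to pass the test. This also holds on the gene lists below. Of the tested probes, 5 were detected on all Prmt5-depleted arrays but not on all controls, so these shares describe the tested probes only. The median log2 change was 0.52 over the tested receptor probes and -0.06 over all tested probes. Over all 53 probes, dim ones included, the median was 0.036. The arrays of the groups did not overlap for 10 of the 18 probes, against 43.1% of all tested probes, and these were the same 10 that passed the test. Of the 18 tested receptor probes 9 (50%) were higher with no overlap, against 20.9% of all tested probes.

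**Figure D1:**
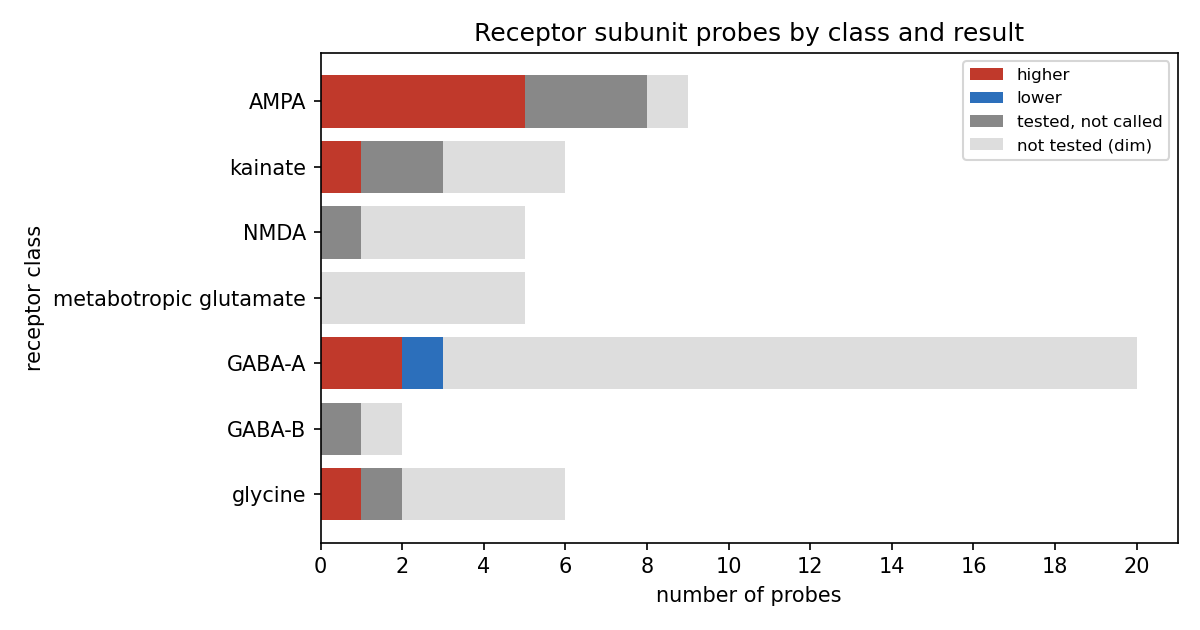
Number of receptor subunit probes (x axis) in each receptor class (y axis), split by result: higher or lower in Prmt5-depleted cells (adjusted p under 0.05), tested but not called, and not tested because too few arrays detected the probe. AMPA receptors had 8 of 9 probes tested, whereas 17 of 20 GABA-A probes and all 5 metabotropic glutamate probes were too dim to test.

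Printed here from RefSeq on GRCm38.p6 are the bases before annotated starts of Glra2, Gabrb1 and Gabrg1. Glra2 had the largest rise of the tested receptor probes. Gabrb1 and Gabrg1 were called in opposite directions from the same gene cluster. Each run is 5′ to 3′ on the gene's strand, is 250 bases long and ends at the base before the start, with CG dinucleotides in capitals.
Glra2, chrX:165327394-165327643, minus strand: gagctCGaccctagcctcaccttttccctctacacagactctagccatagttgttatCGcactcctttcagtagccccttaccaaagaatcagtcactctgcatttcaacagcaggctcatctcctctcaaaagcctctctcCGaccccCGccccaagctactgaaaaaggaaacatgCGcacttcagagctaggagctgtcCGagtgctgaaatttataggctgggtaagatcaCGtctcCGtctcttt
Gabrb1, chr5:71699682-71699931, plus strand: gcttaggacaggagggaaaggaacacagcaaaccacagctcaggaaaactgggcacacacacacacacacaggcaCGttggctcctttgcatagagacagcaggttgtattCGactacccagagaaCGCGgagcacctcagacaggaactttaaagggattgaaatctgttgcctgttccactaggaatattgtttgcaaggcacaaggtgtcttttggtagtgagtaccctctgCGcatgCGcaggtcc
Gabrg1, chr5:70842618-70842867, minus strand: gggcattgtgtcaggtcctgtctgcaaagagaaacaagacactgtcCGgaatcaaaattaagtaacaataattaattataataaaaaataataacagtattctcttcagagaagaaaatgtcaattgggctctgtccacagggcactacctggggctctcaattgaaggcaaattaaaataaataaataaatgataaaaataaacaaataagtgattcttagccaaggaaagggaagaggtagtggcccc
The Glra2 stretch holds 8 CG dinucleotides and the Gabrg1 stretch 1. Gabrb1 has 2 annotated starts, with 6 in the stretch shown and 18 before the other start. The start shown was picked because it lies outside the neighbouring Gabra4, and which start the cells use was not tested. A CG, which reads the same on either strand, is present in 92.1% of all 32841 promoter stretches of this length, with a median of 6, and 18.8% hold at most 1. Promoter entries were found for 32 of the 40 genes and for 4 of the 7 genes called. These counts describe the sequence and were not set against the expression values.

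Among glycine receptors, ligand-gated chloride channels, the alpha 2 subunit gene Glra2 rose and no other member passed the test. Glra2 encodes the alpha subunit that prevails in the embryonic brain. Its probe ILMN_2729364 read 10.77, 10.80, 10.76 and 11.05 on Prmt5-depleted arrays 1 to 4, against 7.86, 7.93, 7.42 and 7.52 on control arrays 1 to 4. Every Prmt5-depleted array lay well above every control array, and all 8 arrays detected the probe. The rise was 8.96-fold (log2 change 3.16, standard error 0.14, limma adjusted p = 5.55e-08), the 37th largest among the 13196 probes tested. Glrb, the beta subunit that ties glycine receptors to the scaffold gephyrin, read 6.32, 5.88, 6.70 and 5.87 on Prmt5-depleted arrays at ILMN_1232399, against 5.63, 6.14, 5.98 and 6.23 on control arrays. The groups overlapped and the log2 difference was 0.20 ± 0.20 (standard error, limma adjusted p = 0.431). The other Glrb probe and the probes of Glra1, Glra3 and Glra4, further alpha subunits, were not detected on any array.

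AMPA receptors, which carry most fast excitation in the brain, had the most tested probes. Gria1, a pore-forming subunit, rose at each of its 3 probes. At ILMN_1248802 the signal was 7.96, 8.12, 7.65 and 8.29 on Prmt5-depleted arrays 1 to 4, against 5.47, 5.94, 5.75 and 5.38 on control arrays. ILMN_2648012 read 7.0, 7.33, 6.65 and 7.78 on Prmt5-depleted arrays, against 5.07, 5.10, 5.36 and 5.01 on control arrays. ILMN_2648006 read 6.99, 7.27, 6.45 and 7.54 on Prmt5-depleted arrays, against 5.54, 4.85, 4.90 and 5.16 on control arrays. No control value reached the lowest Prmt5-depleted value at any of the probes. The first of them was detected on all 8 arrays and rose 5.17-fold (log2 change 2.37, standard error 0.17, limma adjusted p = 7.31e-07). The others were detected on 4 Prmt5-depleted arrays but on 1 of 4 control arrays, so the filter favoured their passing the test. They rose 4.16-fold and 3.86-fold as estimated (limma adjusted p = 9.88e-06 and 2.96e-05), or 3.75-fold and 3.31-fold once values under the lowest detected signal of an array were raised to it. The size depended on the background correction: without it the log2 changes were 1.54, 1.15 and 1.08 in the same order of probes, against 2.37, 2.06 and 1.95 with it, and all 3 still passed.

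Gria3, another pore-forming AMPA subunit, rose at 2 of its 3 probes. ILMN_2638066, detected on all 8 arrays, read 7.47, 7.71, 7.56 and 7.50 on Prmt5-depleted arrays, against 6.92, 7.10, 7.03 and 6.85 on control arrays. This was a 1.5-fold rise with no overlap (log2 change 0.59, standard error 0.11, limma adjusted p = 0.00134). ILMN_1223636, detected on 1 of 4 control arrays, read 5.85, 5.99, 6.03 and 5.76 on Prmt5-depleted arrays, against 5.47, 4.92, 4.79 and 4.80 on control arrays. It rose 1.88-fold, or 1.51-fold with dim values raised to the lowest detected signal (limma adjusted p = 0.000599). Here too the filter favoured its passing the test. ILMN_1238789 lay between 5.17 and 5.67 on Prmt5-depleted arrays and between 4.83 and 5.22 on control arrays, and did not pass the test (log2 difference 0.36, limma adjusted p = 0.0601). It passed when Prmt5-depleted array 3 or control array 2 was left out (limma adjusted p = 0.0434 and 0.05). It did not pass without the 3 arrays that stood apart (log2 difference 0.375, limma adjusted p = 0.0934). Nor did it pass with their split as a covariate (limma adjusted p = 0.0728).

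Gria2, the subunit whose edited form keeps AMPA receptors from passing calcium, did not pass the test at either probe, although it was detected on all 8 arrays. ILMN_2680737 read 10.82, 11.54, 10.47 and 11.12 on Prmt5-depleted arrays 1 to 4, against 10.43, 10.70, 10.82 and 9.72 on control arrays 1 to 4. ILMN_3122922 read 9.20, 9.90, 8.95 and 9.66 on Prmt5-depleted arrays, against 9.39, 9.48, 9.45 and 8.30 on control arrays. At both probes the arrays that stood apart along the second component, Prmt5-depleted 1 and 3 and control 4, were the lowest of their group. The log2 differences were 0.57 (standard error 0.26, limma adjusted p = 0.0936) and 0.27 (standard error 0.28, limma adjusted p = 0.448). With the split of the arrays as a covariate both probes passed, at log2 changes of 0.77 and 0.50 (limma adjusted p = 0.00133 and 0.00741). The first probe also passed without the 3 arrays (log2 change 0.67, limma adjusted p = 0.0163) and without Prmt5-depleted array 3 alone (log2 change 0.74, limma adjusted p = 0.0384). The second did not pass without the 3 arrays (log2 difference 0.34, limma adjusted p = 0.09). Without control array 4 alone the log2 difference of the second was -0.014. Gria4, the remaining AMPA subunit, was detected on 1 Prmt5-depleted array and no control array and was not tested.

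Unequal change of probes of the same gene was tested for the 7 pairs that the 3 genes with several tested probes allow. An exact two-sided permutation test of the 8 arrays called 0 of the 7 pairs after Benjamini-Hochberg adjustment and 1 at an unadjusted p under 0.05. That pair was the Gria2 probes, whose changes differed by 0.30 on the log2 scale (exact p = 0.0286, the smallest that 70 assignments allow, adjusted p = 0.2). The Gria1 and Gria3 probes differed by at most 0.56 in their changes, with exact p between 0.0857 and 0.714.

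**Figure D2:**
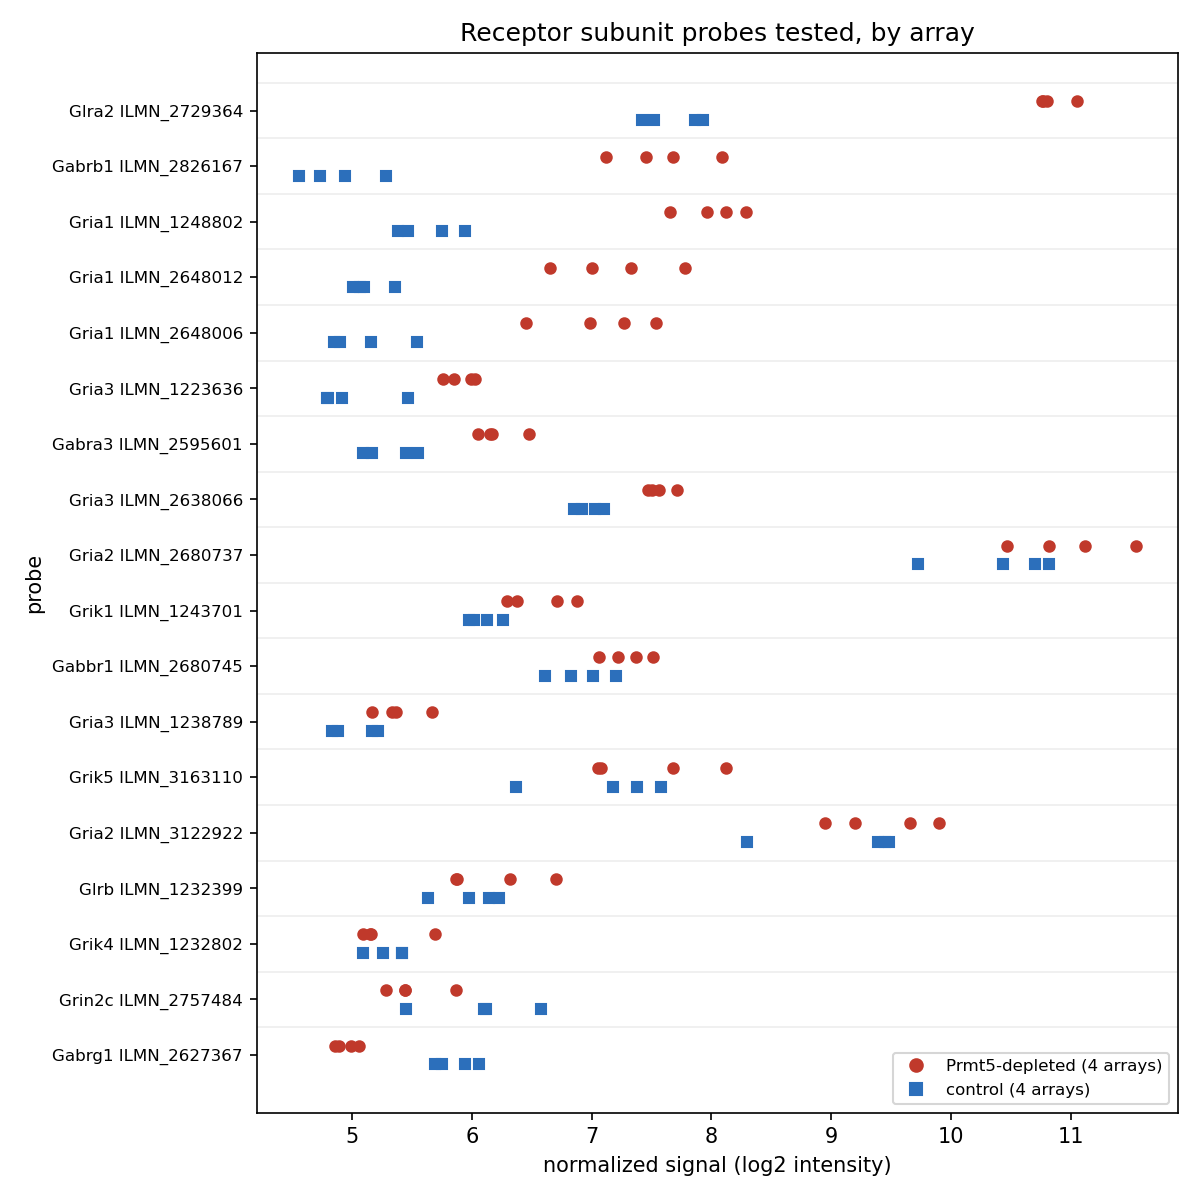
Normalized log2 signal (x axis) of each of the 18 tested receptor subunit probes (y axis, ordered by change) on every array, with Prmt5-depleted arrays as circles above and control arrays as squares below within each row. Glra2, Gabrb1 and the 3 Gria1 probes show the widest gaps between groups, and Gabrg1 at the bottom is the only one with all Prmt5-depleted arrays below all controls.

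Among GABA-A receptors, chloride channels assembled from alpha, beta, gamma and other subunits, 2 probes rose and 1 fell. These were the only probes tested of 20 for 16 genes. None was detected on all 8 arrays. Each, Gabra3 included, met the filter through the group where it was high, so the filter favoured its passing the test. These calls are not set against the 46.7% of all tested probes. Gabrb1, a beta subunit, read 7.12, 7.68, 7.45 and 8.09 at ILMN_2826167 on Prmt5-depleted arrays 1 to 4, against 4.73, 5.28, 4.56 and 4.94 on control arrays. The groups were far apart, and only 1 of 4 control arrays detected the probe. It rose 6.54-fold as estimated (log2 change 2.71, standard error 0.21, limma adjusted p = 1.37e-06) and 4.92-fold with dim values raised to the lowest detected signal. Without background correction the log2 change was 1.59, and with an offset of 50 it was 1.83, so neither fold is a lower bound across settings, although the call held in both.

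Gabra3, an alpha subunit prominent in the fetal brain, read 6.17, 6.05, 6.15 and 6.48 at ILMN_2595601 on Prmt5-depleted arrays, against 5.09, 5.55, 5.45 and 5.17 on control arrays. It was detected on 2 of 4 control arrays and rose 1.86-fold with no overlap between groups, or 1.77-fold with dim values raised (limma adjusted p = 0.000342). Gabrg1, a gamma subunit, went the other way. Its probe ILMN_2627367 read 4.89, 4.99, 5.06 and 4.86 on Prmt5-depleted arrays, against 6.06, 5.94, 5.69 and 5.75 on control arrays. All control arrays and no Prmt5-depleted array detected it, so on the background-corrected scale its level was at least 1.65-fold lower (limma adjusted p = 8.82e-05). The change was smaller in other settings that kept the call, with a log2 change of -0.42 without background correction and -0.51 with an offset of 50.

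Gabrg1 and Gabrb1 belong to 1 cluster on chromosome 5, where the gene table places Gabrg1, Gabra2, Cox7b2, Gabra4 and Gabrb1 in that order. The outer members of the cluster were thus called in opposite directions. The subunit genes between them were too dim to test: Gabra2 was detected on no array and Gabra4 on 1 control array. On the X chromosome Gabra3 lies beside Gabrq, which was detected on no array. On chromosome 3 Gria2 and Glrb are neighbours, and neither passed the test.

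The other GABA-A subunits had little or no signal. No array detected Gabra5, Gabra6, Gabre, Gabrg3, Gabrr1, Gabrr2 or Gabrr3. Gabrd was detected at 1 of its 2 probes, on 1 Prmt5-depleted array, and Gabrp at 1 of its 2 probes, on 1 Prmt5-depleted and 2 control arrays. Gabrb2, another beta subunit, was detected at ILMN_2696413 on 3 Prmt5-depleted arrays and no control array. It read 5.34, 5.48, 5.87 and 4.82 on Prmt5-depleted arrays, against 4.66, 4.99, 4.77 and 4.96 on control arrays, so the groups overlapped. In a fit of all probes its log2 difference was 0.53 and did not pass (limma adjusted p = 0.0933), and its other probe was detected on no array.

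The GABA-B receptor was represented by Gabbr1, the subunit that binds GABA. ILMN_2680745 read 7.37, 7.51, 7.06 and 7.22 on Prmt5-depleted arrays, against 7.01, 6.61, 6.83 and 7.20 on control arrays. The groups overlapped in a narrow range and the log2 difference of 0.38 (standard error 0.15) did not pass the test (limma adjusted p = 0.0595). It passed without Prmt5-depleted array 3 (limma adjusted p = 0.0426) or control array 4 (limma adjusted p = 0.0228), with array weights (limma adjusted p = 0.018), and without the 3 arrays that stood apart (log2 change 0.55, limma adjusted p = 0.0289). It did not pass with the split of the arrays as a covariate (log2 difference 0.36, limma adjusted p = 0.0709). Of 19 alternative settings it passed in 5. The second Gabbr1 probe was detected on no array.

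Kainate receptors, glutamate channels found on either side of the synapse, had 3 tested genes and 1 that rose. Grik1 at ILMN_1243701 read 6.38, 6.71, 6.29 and 6.88 on Prmt5-depleted arrays, against 6.02, 6.13, 6.26 and 5.98 on control arrays. The gap between the groups was small, and the rise was 1.38-fold (log2 change 0.47, standard error 0.15, limma adjusted p = 0.0226). This call was lost without Prmt5-depleted array 2 or 4 or control array 1 (limma adjusted p = 0.0611, 0.0656 and 0.0515) and with array weights (limma adjusted p = 0.0622). The other Grik1 probes were detected on no array.

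Grik5, a subunit that needs other kainate subunits to form a channel, read 7.08, 7.68, 7.05 and 8.12 at ILMN_3163110 on Prmt5-depleted arrays, against 7.58, 7.38, 7.18 and 6.37 on control arrays. As with Gria2, Prmt5-depleted arrays 1 and 3 and control array 4 were the lowest of their groups. The log2 difference was 0.35 (limma adjusted p = 0.331), and it passed with the split as a covariate (log2 change 0.58, limma adjusted p = 0.00429) and without the 3 arrays (log2 change 0.52, limma adjusted p = 0.049). Grik4, a subunit of the same kind, was near the detection limit, between 5.09 and 5.69 on Prmt5-depleted arrays and between 5.09 and 5.42 on control arrays (log2 difference -0.028, limma adjusted p = 0.897). Grik2 was detected on 1 array of each group and was not tested.

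The order of arrays within a group was shared by several members. Prmt5-depleted arrays 1 and 3 both lay below arrays 2 and 4 for 9 of the 18 tested receptor probes, against 23.8% of all tested probes. They lay above them for 1, Glrb (5.56%), against 29.2% of all tested probes. Control array 4 was the lowest control for 7 receptor probes (38.9%), against 29.6% of all. Both held for 6: the Gria2 probes, a pair of Gria1 probes, Grik1 and Grik5 (33.3%), against 13.3% of all tested probes. Without the 3 arrays 12 receptor probes were higher and 1 was lower, and with the split as a covariate 12 were higher and 2 were lower, against 9 and 1 with all arrays and no covariate.

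**Figure D3:**
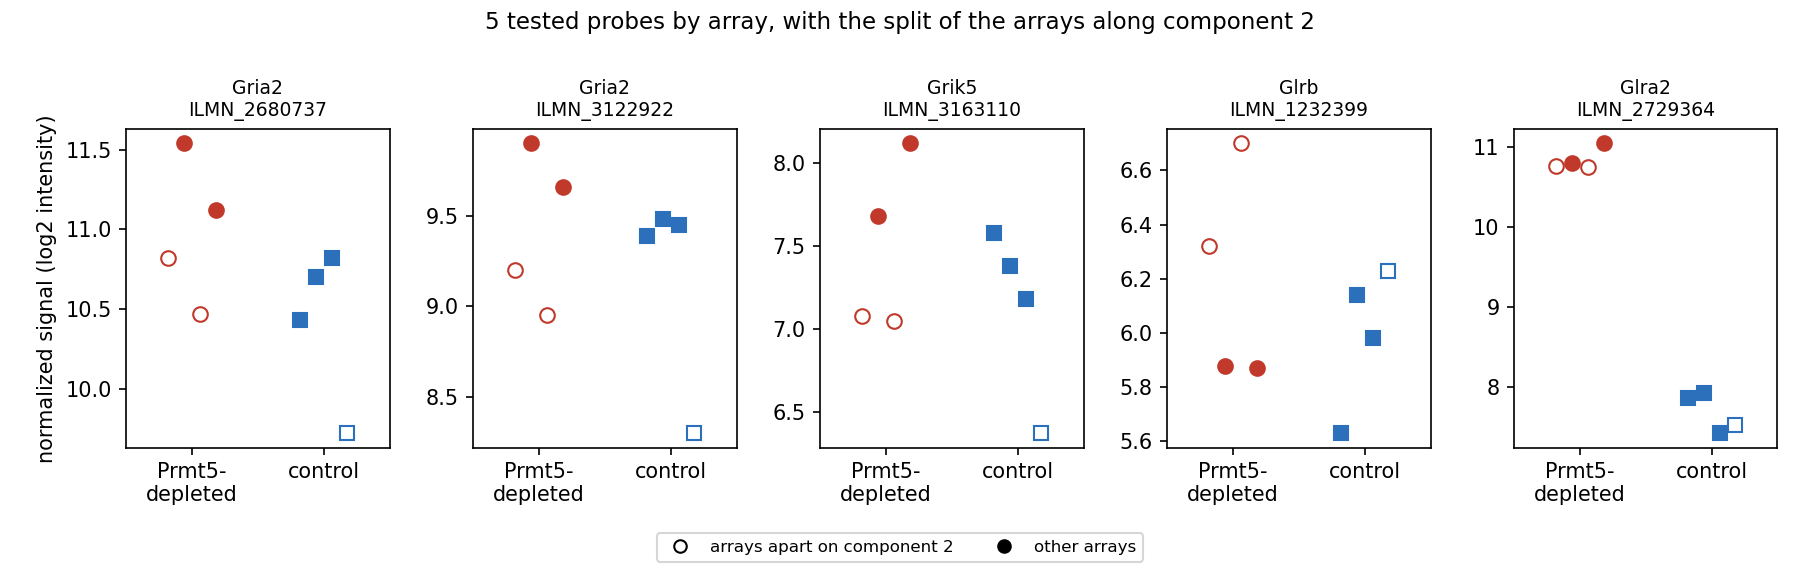
Normalized log2 signal (y axis, separate scale in each panel) of 5 tested probes on Prmt5-depleted arrays (circles) and control arrays (squares), with open symbols for the 3 arrays that stood apart along the second principal component. The open symbols are the lowest of their group for both Gria2 probes and Grik5 and the highest for Glrb, while the groups stay far apart for Glra2.

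NMDA receptors, calcium-permeable glutamate channels, were barely represented. Of 5 genes only Grin2c was tested, a subunit best known from cerebellar granule cells and astrocytes. ILMN_2757484 read 5.87, 5.44, 5.28 and 5.44 on Prmt5-depleted arrays, against 6.58, 5.45, 6.10 and 6.12 on control arrays. Control array 2 lay among the Prmt5-depleted arrays. The log2 difference of -0.55 (standard error 0.21) did not pass the test (limma adjusted p = 0.0524). It passed without control array 2 (log2 change -0.76, limma adjusted p = 0.0065), without Prmt5-depleted array 1 (limma adjusted p = 0.0284) and with the split of the arrays as a covariate (limma adjusted p = 0.049), but not without the 3 arrays that stood apart (log2 difference -0.60, limma adjusted p = 0.112). Grin2a, Grin2b, Grin2d and Grin3b were detected on no array.

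None of the metabotropic glutamate receptor genes with a probe, Grm3, Grm4, Grm6, Grm7 and Grm8, was detected on any array. Over the 35 receptor probes left out of the test, log2 signals lay between 4.31 and 5.87. In a fit of all 25662 probes, of which 24.2% passed, 2 of these 35 passed as higher and 0 as lower, with 3 at an unadjusted p under 0.05, and among all probes left out of the test 3.71% passed. Their groups did not overlap, as for 6.79% of all probes left out. They were Gria4 (limma adjusted p = 0.0325) and Grm8 (limma adjusted p = 0.04). Gria4 was above background on 1 Prmt5-depleted array and Grm8 on none, so no size or fold is given for either. A change of a receptor at this signal could not be measured.

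**Figure D4:**
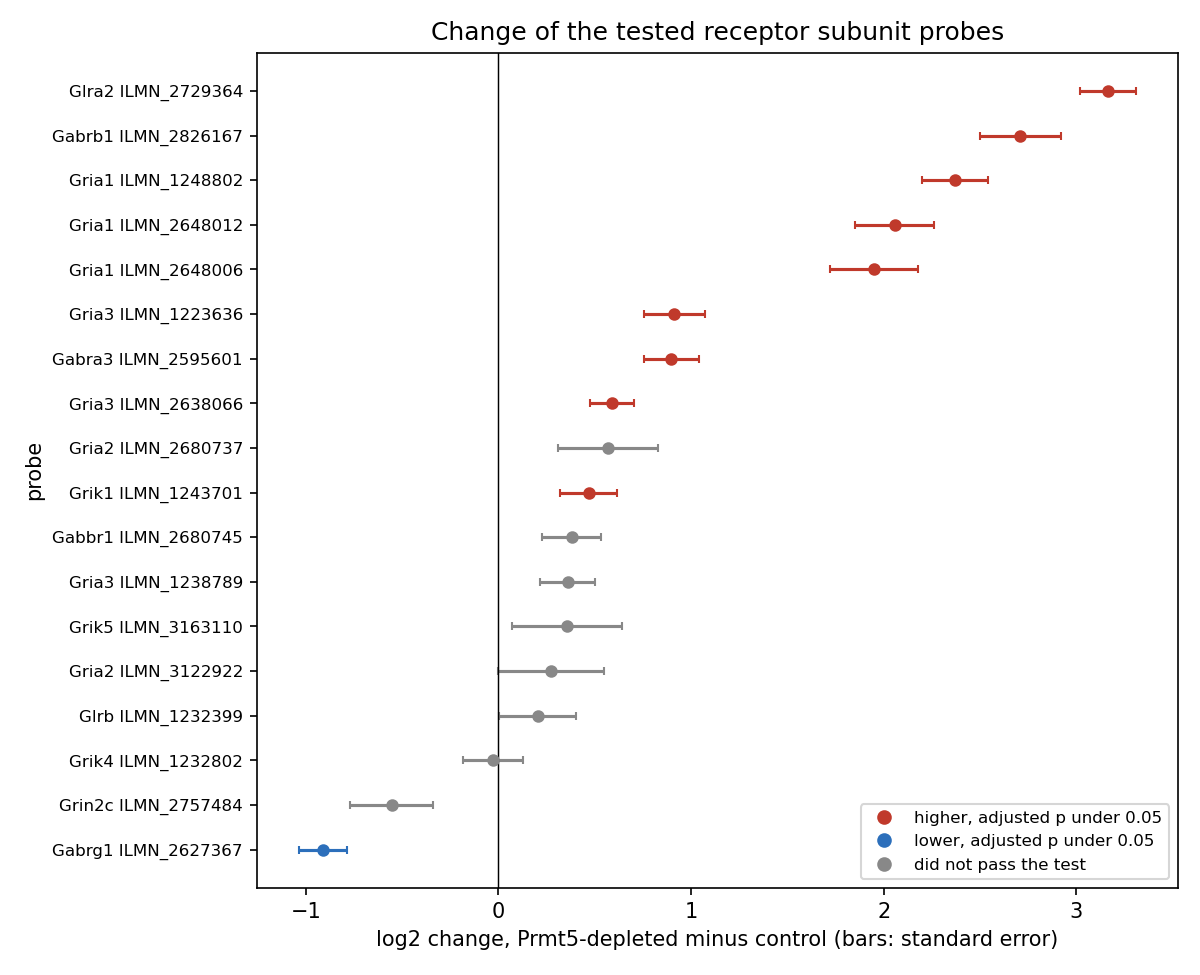
Log2 change, Prmt5-depleted minus control, of each tested receptor subunit probe (x axis, bars are the standard error from limma over 4 arrays a group). Points run from 3.16 for Glra2 to -0.91 for Gabrg1, and 8 of the 18 probes did not pass the test.

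Proteins that accompany the receptors were described through lists of related genes. Auxiliary subunits and other partners of ionotropic receptors had 15 tested probes for 11 genes, of which 5 rose and 4 fell, where 22.1% of all tested probes rose and 24.7% fell. The median log2 change was 0.22, against -0.06 over all tested probes. Cacng5, which encodes a transmembrane AMPA receptor regulatory protein, rose 2.43-fold at ILMN_2725698 (limma adjusted p = 0.00247). Its relative Cacng4 went the other way and fell 1.73-fold with no overlap between groups (limma adjusted p = 0.0064). Lrrtm1, a synaptic adhesion protein, rose 2.46-fold (limma adjusted p = 0.00163), and Grina, named after the NMDA receptor, rose 1.77-fold (limma adjusted p = 0.000258). Neto1, an auxiliary subunit of kainate receptors, fell at each of its 3 probes, by 1.49-fold at ILMN_2620827 (limma adjusted p = 0.0018).

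Postsynaptic scaffold and signalling genes had 28 tested probes for 22 genes, of which 14 rose and 3 fell, with a median log2 change of 0.35. Over all tested probes 22.1% rose and 24.7% fell. Dlg2, a scaffold of NMDA receptors, rose 4.29-fold (limma adjusted p = 1.86e-07), and Kctd12, an auxiliary subunit of GABA-B receptors, rose 3.72-fold (limma adjusted p = 2.50e-07). Iqsec3, a partner of gephyrin at inhibitory synapses, rose at least 3.44-fold, since no control array detected it (limma adjusted p = 4.21e-06). Iqsec3 met the filter through the Prmt5-depleted arrays alone, which favoured its passing the test. The adhesion protein gene Nlgn3 fell 2.09-fold (limma adjusted p = 4.13e-05) and Slitrk3, an organiser of inhibitory synapses, fell 1.63-fold (limma adjusted p = 0.00092). The 3 probes of Gphn, which encodes gephyrin itself, did not pass the test, with log2 differences of -0.30, -0.27 and -0.15.

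Genes of transmitter synthesis and transport had 26 tested probes for 18 genes, of which 11 rose and 4 fell, against 22.1% and 24.7% of all tested probes, with a median log2 change of 0.03. Gad1, which makes GABA, rose 9.55-fold at ILMN_2621743 (limma adjusted p = 1.34e-06). Slc17a6, which loads glutamate into vesicles, rose 7.96-fold (limma adjusted p = 1.06e-07). Its relative Slc17a7, not detected on any control array, rose at least 4.17-fold (limma adjusted p = 7.24e-07). Slc17a7 met the filter through the Prmt5-depleted arrays alone, which favoured its passing the test. The GABA transporter gene Slc6a11 fell 3.97-fold (limma adjusted p = 4.25e-06), and Shmt1, an enzyme that interconverts serine and glycine, fell 3.25-fold (limma adjusted p = 1.03e-05). The chloride importer gene Slc12a2 did not pass the test at either tested probe (log2 differences -0.33 and -0.13), and the exporter gene Slc12a5 was detected on no array.

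Markers of neurons moved with these results. Of 17 tested neuron marker probes, 12 rose and none fell, and 5 did not pass the test. Over all tested probes of the array 22.1% rose and 24.7% fell. Their summed linear signal, taken at the brightest tested probe of each of 12 genes, was 23624 to 26137 on Prmt5-depleted arrays and 8033 to 8830 on control arrays. Tbr1 of early cortical neurons rose 8.10-fold and Stmn2 6.25-fold, while Nefl and Snap25 were detected on no array. All 4 tested probes of GABAergic neuron markers, for 3 genes, rose (sums 778 to 1812 against 164 to 279 on controls). Gad2, Dlx2, Dlx5 and Lhx6 were detected on no array. All 5 of glutamatergic neuron markers rose too (sums 3790 to 5114 against 921 to 1252 on controls), with Neurod6 on no array. These lists share Gad1, Slc32a1, Slc17a6, Slc17a7 and Tbr1 with each other or with the transport list. The part of neuron content in the receptor changes was not tested, and in such bulk samples more cells of a type and more RNA per cell cannot be told apart.

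Of 10 tested progenitor probes 2 rose and 5 fell, against 22.1% and 24.7% of all tested probes. Hes5 and Hes1, targets of Notch signalling, fell, Hes5 by 8.79-fold at ILMN_1253414 and Hes1 with a log2 change of -1.40, and Sox2 fell at both probes (log2 changes -1.21 and -0.73). Vim and 1 of 2 Nes probes rose (log2 changes 0.54 and 0.40). The summed progenitor signal, 31538 to 35014 on Prmt5-depleted arrays and 32126 to 36041 on control arrays, is carried mostly by Slc1a3 and Vim and does not show the falls of the dimmer genes. Msi1 and Pax6 were detected on no array. Of 6 tested oligodendrocyte lineage probes 5 fell and 1 rose, against 24.7% and 22.1% of all tested probes. Pdgfra and Gpr17, genes of oligodendrocyte precursors, were detected on no Prmt5-depleted array and on all control arrays. They were at least 30.6-fold and 15.2-fold lower (limma adjusted p = 9.22e-09 and 5.55e-08). Both met the filter through the control arrays alone, which favoured their passing the test. Olig2 fell 3.22-fold and Cspg4 2.40-fold, while Mbp, a myelin gene, rose 4.16-fold at ILMN_3011353. The other Mbp probes, ILMN_2737200 and ILMN_3081854, were each detected on 1 array and were not tested. The summed signal of this list, 23165 to 27514 on Prmt5-depleted arrays and 35105 to 39270 on control arrays, is mostly Olig1, which fell 1.39-fold, and Mog was detected on no array. None of 5 tested astrocyte probes passed the test (sums 7561 to 8799 against 6843 to 8568 on controls), with Gfap and S100b on no array. The astrocyte marker Aqp4, detected on 3 control arrays and no Prmt5-depleted array, was left out of the test. Its groups did not overlap, but the lowest control value, 4.92 on array 1, lay close to the highest Prmt5-depleted value, 4.88. In a fit of all probes Aqp4 passed as lower (log2 change -0.97, limma adjusted p = 0.022). With dim Prmt5-depleted values raised to the lowest detected signal the log2 change was -0.65. All 3 tested mesenchymal probes, of Dcn and Lum, rose, against 22.1% of all tested probes. Lum and Dcn at ILMN_2596346 met the filter through the Prmt5-depleted arrays, which favoured their passing the test. Sums of Dcn and Lum were 484 to 834 on Prmt5-depleted arrays and 102 to 116 on control arrays, with Col1a1 on no array. Col1a2 and Col3a1 at ILMN_1258629 were detected on 3 Prmt5-depleted arrays and no control array, and were not tested. Microglia had 1 tested probe, of Aif1, which did not pass the test, and endothelium had none. Their part in the receptor changes was not tested either.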

How the data were processed

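Intensity values, deposited by the authors and headed as non-normalized, came from Illumina MouseRef-8 V2 arrays of biotin-labelled cRNA. The deposited table also gives a detection p-value for each probe and array, per the file headers. Scanner software is not stated in the labels or headers. The deposited series matrix intensity values matched quantile normalization of that table within 3.64e-12, on a linear scale with column medians of 95.7 to 95.8, and served as an alternative. Its processing is not stated.

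Background was removed by normexp using the detection p-values, with an offset of 16, before quantile normalization and log2 transformation (neqc, limma 3.58.1, R 4.3.3, statmod 1.5.0). The offset pulls changes of dim probes towards 0, and quantile normalization hides a change shared by most genes. Groups were compared per probe with lmFit and eBayes, two-sided, without covariates, at an adjusted p of 0.05. A probe undetected in 1 group has an at-least fold against the lowest detected signal of each array. The script was tested on simulated data.

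Probes were named from the platform annotation. A single gene is given for 23943 of 25662 probes, several genes for 0 and no gene for 1719. A RefSeq table of GRCm38.p6 matched 23927 and changed 0 symbols. Members, gene lists (3 of receptor partners, 9 of cell types) and naming rules were chosen with earlier results of these data known. Per-array values are given for called members and for members alone in their class or at odds with another probe of their gene, and for others because of the array split, after their values were seen. Of each partner list up to 4 called probes with the smallest adjusted p and up to 2 going against the majority are named. Cacng4, Gphn, Slc12a2 and the marker Aqp4 were added after their values were seen. Summed marker levels include the offset. Whether replicate numbers pair the arrays is not known, and the main fit did not pair them. The deviations of same-numbered arrays correlated at -0.135, 0.244, -0.165 and -0.374, which cannot show whether arrays were paired. Alternatives were other background, offset, normalization and filter settings, 1 probe per gene, array weights, a replicate block, the component 2 split and leaving out arrays.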

Additional observations from a re-analysis of the deposited data

Results flagged for a closer look

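Among 36 groups of 4 arrays, 2 for each tested receptor probe, 3 had 1 array far from the other 3, where chance alone gives about 5% of such groups. Control array 4 was low for Gria2 at ILMN_3122922 (8.30), with a gap to the nearest array of 0.918 of the range of the group. Prmt5-depleted array 4 was high for Grik4 at ILMN_1232802 (5.69), with a gap of 0.89 of the range. Prmt5-depleted array 4 was also high for Glra2 at ILMN_2729364 (11.05), with a gap of 0.853 of a narrow range. Gabrb2 at ILMN_2696413 was left out of the test, yet 3 of 4 Prmt5-depleted arrays and no control array detected it.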

How the results depend on the processing

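The calls of Glra2, Gabrb1, Gria1 at its 3 probes, Gabra3, Gria3 at ILMN_1223636 and ILMN_2638066, and Gabrg1 kept their direction and side of the threshold under every alternative in which they were tested, but not their size. Without background correction, and on the authors' series matrix values, the log2 changes were 1.592 for Gabrb1 (2.708 in the report), 1.541, 1.154 and 1.079 for Gria1 at ILMN_1248802, ILMN_2648012 and ILMN_2648006 (2.37, 2.056 and 1.949), and -0.423 for Gabrg1 (-0.911). With an offset of 50 they were 1.834 for Gabrb1, 1.796, 1.389 and 1.292 for Gria1 and -0.506 for Gabrg1. Glra2 was 2.843 and 2.967 in these settings (3.164 in the report). The number of higher probes lay between 8 and 12 when arrays were left out in turn. The number of lower probes lay between 1 and 2 in those fits. It was 0 at a stricter detection p of 0.01, which left Gabrg1 untested, and 2 with the split along component 2 as a covariate. With the replicate block it was also 2, as Grin2c passed (adjusted p = 0.0257); the block changed no other call of the 18 receptor probes. Without the detection filter 53 probes were fitted and their median log2 change was 0.036. Leaving out 1 array gave medians between 0.402 and 0.574, 38 to 45 called probes on the partner lists (41 with all arrays) and 15 to 18 receptor probes that pass the filter. The median of all tested probes was -0.064, and 0 with cyclic loess, where Gabbr1 and Gria3 at ILMN_1238789 passed (adjusted p = 0.0204 and 0.0415).

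Some uncalled differences changed sign. Grik4 was 0.01 with cyclic loess, -0.165 to 0.031 with arrays left out in turn and 0.131 without the 3 arrays. Gria2 at ILMN_3122922 was -0.059 with array weights and -0.014 to 0.435 with arrays left out. Glrb was -0.038 without the 3 arrays, an alternative chosen after seeing the data. The causes were not tested. Signal over background limits the 35 untested probes.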
